A study of Mus musculus with 14 samples.

Results

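ISG15 conjugation and Schlafen genes were read in peritoneal cells of mice that had been given bacterial lipopolysaccharide (LPS) after increasing doses of the compound labelled SMD. The genes are Isg15, Ube2l6, Herc6, Usp18, Isg20, Bst2, Slfn1, Slfn2, Slfn4 and Slfn5, and a probe set, a group of short probes that report on 1 transcript, counted for a gene when that gene was its only symbol in the platform annotation. The rule found 15 of the 45037 probe sets that were not array controls, for 9 of the 10 named genes and among 18193 genes with such a probe set. Isg15 had no probe set of its own: the probe set that carries its symbol also carries that of Gm9706, a pseudogene, so it enters no count below. Herc6 had 4 probe sets, Slfn5 had 3, Slfn1 had 2 and each of the others had 1. Of these 15, 14 passed the filter on low signals, with all 9 genes among them; the probe set left out was the second one for Slfn1.

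The 14 arrays came from female C57Bl/6 x C3H F1 mice aged 12 to 16 weeks. The naive group had 2 arrays and received neither agent. The LPS group had 3 arrays, from mice injected into a tail vein with 60 µg per mouse of ultra pure Salmonella minnesota LPS. Mice of the 3 remaining groups, with 3 arrays each, were anesthetized with halothane, received 50 µl of SMD on the nares at 100, 200 or 300 mg/kg, and were given the same LPS 30 minutes later. Cells of the SMD groups were taken 2.0 hours after LPS; the labels do not give the time for the LPS group, or say whether naive and LPS mice received halothane or a vehicle. SMD is not spelled out in the labels. Whether an array holds RNA of 1 mouse or of a pool is not stated, so the p-values measure the spread between these arrays.

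The tissue is labelled peritoneal macrophages, and macrophage markers were strong in every group, with a summed signal of 10 genes between 117598 and 153814. Markers of other cells were also present. The summed signal of 7 B cell markers lay between 33778 and 83433. That of 7 neutrophil markers rose from 2651 to 3482 in naive arrays to between 21122 and 23510 after LPS and between 35910.0 and 47218 at SMD 300 mg/kg. S100a8 and S100a9 made up most of it, with means of 11069 and 6954 after LPS and 22892 and 14771 at 300 mg/kg. The mean of Csf3r went from 2898 after LPS to 1109 at 300 mg/kg. Camp went from 267 to 259, Ngp from 1146 to 1181, Ltf from 166 to 206 and Cxcr2 from 31.5 to 72.4. In such mixed RNA, fewer cells of a type and less RNA per cell cannot be told apart. The 3′/5′ signal ratio of the actin control, which is higher where RNA is more degraded or less fully copied, lay between 2.84 and 3.05 in naive arrays, 1.92 and 5.86 after LPS, 2.72 and 11.6 at 100 mg/kg, 9.03 and 10.7 at 200 mg/kg, and 6.99 and 18.9 at 300 mg/kg. The same ratio of the GAPDH control was 6.78 and 8.86 in naive arrays and 4.54, 92.0 and 16.8 after LPS. It lay between 21.0 and 74.2 at 100 mg/kg, 67.0 and 114 at 200 mg/kg, and 32.2 and 179 at 300 mg/kg. Only the actin ratio was used as a covariate. The actin ratio moved with SMD dose, and where it changes a call of a member as a covariate, that is given with the comparison.

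ISG15 is a small ubiquitin-like protein that is attached to other proteins during antiviral and antibacterial responses. UBA7 activates it, UBE2L6 (the conjugating enzyme) carries it, HERC6 is the main ISG15 ligase in mice, and USP18 takes ISG15 off its targets and also restrains signalling at the type I interferon receptor. LPS acts on macrophages through TLR4, which leads to interferon beta, and interferon then drives these genes through ISGF3, a complex that holds STAT2 and IRF9. ISG20 is an RNA exonuclease, BST2 (tetherin) holds enveloped particles at the cell surface, and the Schlafen genes of mice are a clustered family known from lymphocyte and macrophage differentiation and growth.

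Promoter sequences show what members share in their upstream DNA that was not used to choose them. RefSeq promoter windows of 300 bases, from 250 before to 50 after the start on assembly GRCm38.p6, were held for 9 of the 10 genes; Usp18 was not in the table. The core of the interferon-stimulated response element, the DNA site of ISGF3, was searched as GAAA, any 2 bases and GAAA again on both strands. It was found in 3 of the 9 genes, Isg15, Bst2 and Slfn5, against 3.99% of 27025 genes (3.44% of their 32851 windows). Isg20 has 3 windows and each of the other 8 genes has 1. The stretches that hold it are printed 5′ to 3′ on the gene's strand, with the matches in capitals: chr4:156200846-156200925 (minus strand) for Isg15, chr8:71537555-71537634 (minus strand) for Bst2 and chr11:82951912-82951991 (plus strand) for Slfn5.
Isg15: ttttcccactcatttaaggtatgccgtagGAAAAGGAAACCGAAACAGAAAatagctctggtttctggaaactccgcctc
Bst2: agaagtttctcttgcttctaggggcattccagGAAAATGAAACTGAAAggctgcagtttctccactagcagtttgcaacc
Slfn5: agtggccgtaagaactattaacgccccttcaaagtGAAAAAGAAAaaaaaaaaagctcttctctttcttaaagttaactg
Isg15 holds 3 overlapping matches, Bst2 holds 2 overlapping matches and Slfn5 holds 1. The core of the gamma-activated site, TTCNNNGAA, which reads the same on both strands, was found in Isg20 and Bst2, against 9.55% of genes and 8.3% of windows; in Bst2 it overlaps the first match above. A match is a run of letters, not a shown binding site.

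Slfn1, Slfn2 and Slfn4 had neither core in this window but shared another run, which was looked for after the windows had been read. ACTTCCTGGAG was picked as the longest run that the 3 windows share on the gene's strand. Its presence in all 3 is therefore fixed by that choice, and its share of windows is description only. ACTTCCTGGAG lies upstream of all 3 starts, and occurs on either strand in 24 of the 32851 windows (0.0731%). It is in capitals in the stretches chr11:83116711-83116790, chr11:83065022-83065101 and chr11:83175078-83175157, all on the plus strand.
Slfn1: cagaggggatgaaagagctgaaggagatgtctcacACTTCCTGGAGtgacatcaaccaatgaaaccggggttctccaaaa
Slfn2: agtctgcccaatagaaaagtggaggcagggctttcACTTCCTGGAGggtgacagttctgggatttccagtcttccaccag
Slfn4: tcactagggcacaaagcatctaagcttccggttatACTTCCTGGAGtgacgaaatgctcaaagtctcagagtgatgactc
The run spans bases 74 to 64 before the start in Slfn1, 55 to 45 in Slfn2 and 73 to 63 in Slfn4. Of these 3 genes with the shared run, Slfn1 and Slfn4 passed the test after LPS and at 300 mg/kg, and Slfn2 passed neither. On chromosome 11 the annotation places the protein-coding genes from Slfn5 to Slfn4 in the order Slfn5, Slfn9, Slfn8, Slfn2, Slfn1 and Slfn4. Pseudogenes and family genes outside that stretch were not listed.

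LPS raised 8 of the 9 measured genes above naive, from about 2-fold for Slfn4 to about 56-fold for Usp18. In all 9 the LPS arrays lay above both naive arrays, against 19.4% of all probe sets. Changes are differences of log2(signal + 16), with the standard error of a limma fit over all 14 arrays and p-values adjusted over 27022 probe sets. A change is called at an adjusted p under 0.05. Of all probe sets 10.3% were called higher and 16.8% lower (2773 and 4540; 3151 and 3236 when each array is scaled to the same median), and the median over the 9 genes was 2.30 against -0.24 over all probe sets. Signals of different genes are not compared in level, since each probe set has its own brightness.

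Among the enzymes of the ISG15 cycle, Usp18 had a signal of 376 and 333 in the naive arrays and 18740.4, 21000.0 and 22798 after LPS. The groups lie far apart, and the change was 5.81 ± 0.87 (SE; adjusted p = 5.54e-05), a 56.2-fold rise. Herc6 was 753 and 769 in naive arrays and 10289, 10821 and 8512 after LPS. The ligase gene thus rose by 3.66 ± 0.54 (adjusted p = 5.14e-05), and its other 3 probe sets rose by 3.55, 3.98 and 3.85. Ube2l6 was the weakest of the enzymes in change, at 80.2 and 158 against 496, 305 and 642, a rise of 1.88 ± 0.49 (adjusted p = 0.0071). Without naive replicate 1, whose Ube2l6 signal was the lower one, the Ube2l6 change was 1.45 (adjusted p = 0.124).

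Both antiviral effectors rose. Isg20, the exonuclease, went from 401 and 483 to 16531, 12658 and 19463, a change of 5.13 ± 0.41 (adjusted p = 4.77e-08). Bst2, tetherin, went from 871 and 762 to 4617, 2721 and 5361, a change of 2.30 ± 0.32 (adjusted p = 2.37e-05).

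The Schlafen genes did not share 1 size of change. Slfn5 rose most, from 219.7 and 232 to 4969.5, 2768 and 3260.4, a change of 3.89 ± 0.53 (adjusted p = 2.14e-05). Slfn1 rose from 2269 and 1736 to 6391, 6853 and 6264, by 1.70 ± 0.43 (adjusted p = 0.00635); without naive replicate 2 the Slfn1 change was 1.51 (adjusted p = 0.0817). Slfn4 was already bright in naive arrays, at 13556 and 14524, and reached 29577, 33059 and 27373, a change of 1.09 ± 0.24 (adjusted p = 0.00207). Slfn2 was 644 and 592 in naive arrays and 3535, 703 and 1294 after LPS, a difference of 1.24 ± 0.78 (adjusted p = 0.275). All 3 LPS arrays lie above both naive arrays for Slfn2, but their own spread is 5.03-fold from lowest to highest. With the actin ratio as a covariate, the Slfn2 difference after LPS was 1.21 and passed the test (adjusted p = 0.0164).

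**Figure D1:**
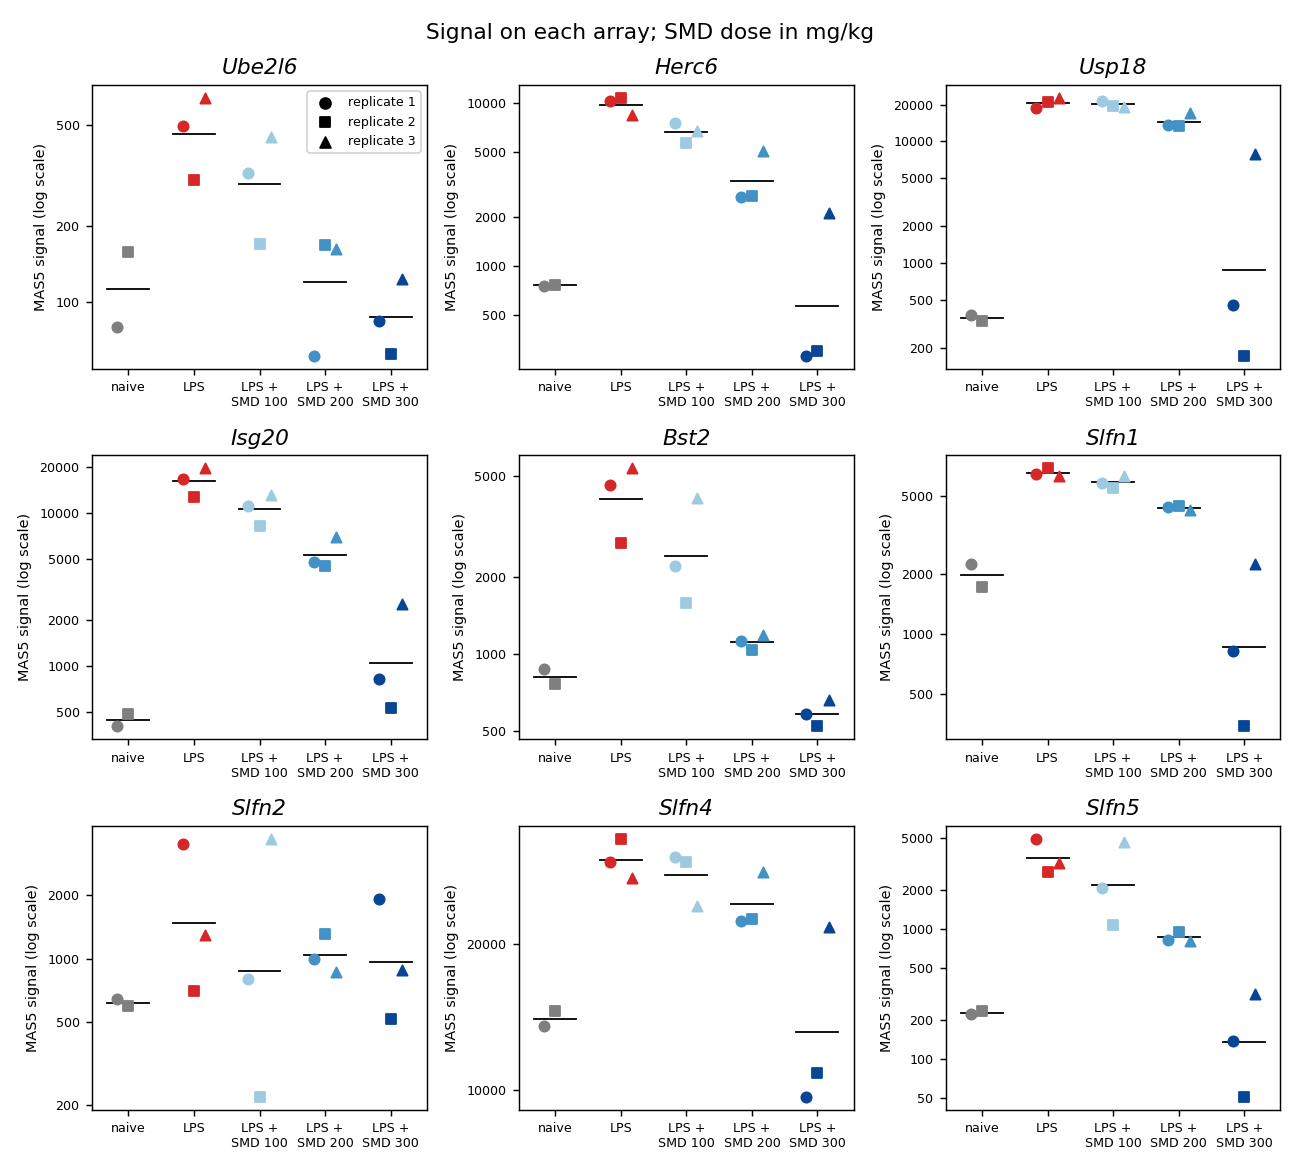
Each panel plots the signal of 1 gene on a log axis by group, 1 point per array, with the shape giving the replicate number and the black line the group mean taken on the log2(signal + 16) scale. Usp18 stays between 13330.3 and 22798 in all LPS arrays up to 200 mg/kg and then spreads from 173 to 7896 at 300 mg/kg, while the Slfn2 arrays of LPS alone and of all SMD doses overlap.

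The number of genes called lower than with LPS alone was largest at the highest SMD dose. At 300 mg/kg 8 of the 9 genes were lower, by 2.27-fold to 23.9-fold, with Slfn2 as the exception. At 200 mg/kg 5 of the 9 were lower, and at 100 mg/kg none was called. The share of all probe sets called lower was 0% at 100 mg/kg, 6.39% at 200 mg/kg and 13.7% at 300 mg/kg. The median over the 9 genes was -0.59, -1.56 and -2.89 at the 3 doses, beside -0.02, -0.05 and -0.03 over all probe sets. These 3 comparisons share the LPS arrays.

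At 100 mg/kg all 9 estimates were below 0, from -0.74 to -0.04, and limma called none after adjustment. At an unadjusted p under 0.05 there was 1, Bst2, at -0.74 ± 0.28 (adjusted p = 0.474), beside 2428 of all probe sets; with weights for each array Bst2 was called (-1.01, adjusted p = 0.0485), and likewise without SMD 100 mg/kg replicate 3 (-1.11, adjusted p = 0.0316). Usp18 at 21622, 19666 and 19349.8 lay within the range of the LPS arrays. Slfn4 at 30306, 29586 and 24014 overlapped its LPS arrays too. The arrays of Herc6 alone lay apart, with 7623, 5711 and 6803 all below the lowest LPS array at 8512, against 5.38% of all probe sets whose arrays lay apart downwards.

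At 200 mg/kg the lower genes were Ube2l6, Herc6, Isg20, Bst2 and Slfn5. Bst2 fell to 1125, 1034 and 1188, a change of -1.85 ± 0.28 (adjusted p = 0.000662), and was called without any 1 array. Slfn5 fell to 829, 944 and 814, a change of -2.03 ± 0.47 (adjusted p = 0.00979). The 3 values of each gene are close together and lie below every LPS array. Isg20 fell to 4741, 4480.4 and 6965, a change of -1.59 ± 0.37 (adjusted p = 0.00959). Ube2l6 fell to 61.5, 168 and 162, a change of -1.80 ± 0.44 (adjusted p = 0.0119), with 1 array below and the others just above its naive arrays. Herc6 fell to 2659, 2713 and 5107, a change of -1.56 ± 0.49 (adjusted p = 0.0415).

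The other 4 genes were not called at 200 mg/kg. Usp18 still stood at 13633, 13330.3 and 16978, a difference of -0.51 ± 0.78 (adjusted p = 0.727), and Slfn1 at 4354, 4428 and 4234, a difference of -0.58 ± 0.39 (adjusted p = 0.363). The 3 arrays of Usp18 and of Slfn1 were nevertheless below all LPS arrays. In all, 7 of the 9 genes lay apart in this way, against 16.7% of all probe sets. Fitted on the LPS and SMD 200 mg/kg arrays alone, Usp18 (adjusted p = 0.0251) and Slfn1 (adjusted p = 0.0139) were called at the same differences. Slfn4, at 22346, 22506 and 28283, and Slfn2, at 997, 1315 and 863, overlapped their LPS arrays.

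The count at 200 mg/kg rests on few arrays. It was 2 of 9 without LPS replicate 1 or without LPS replicate 3, and 3 of 9 without SMD 200 mg/kg replicate 1. Ube2l6 lost its call in each of those 3 fits. Isg20 lost it without LPS replicate 3 (adjusted p = 0.0545) and Slfn5 lost it without LPS replicate 1 (adjusted p = 0.0635). Herc6 lost it in 8 of the 14 such fits, with adjusted p up to 0.134. With the actin ratio as a covariate none of the 5 was called lower: Bst2 was at -1.10 (adjusted p = 0.0521), Isg20 at -1.44 (0.154), Herc6 at -2.10 (0.0944), Ube2l6 at -1.09 (0.379) and Slfn5 at -1.13 (0.366). In that fit 109 of the 27022 probe sets were called lower.

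**Figure D2:**
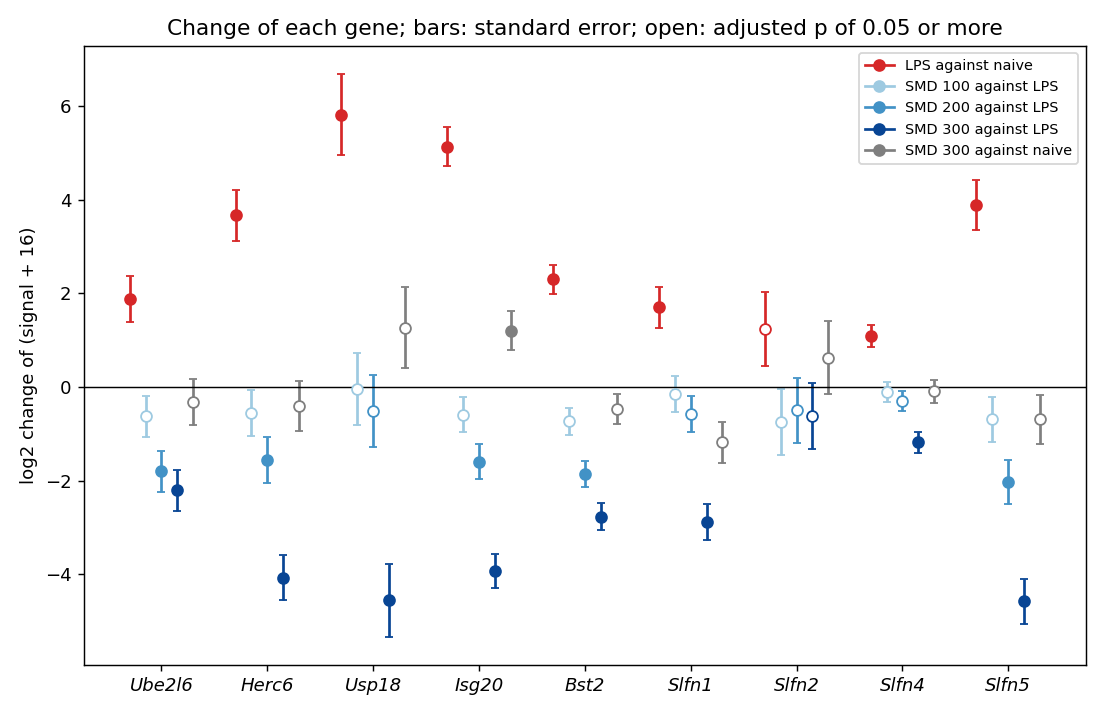
Points give the log2 change of (signal + 16) of each gene in 5 comparisons, bars the standard error of the limma fit, and open points an adjusted p of 0.05 or more. At 300 mg/kg against LPS 8 genes lie between -4.58 and -1.18, and against naive only Isg20 is a filled point.

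At 300 mg/kg all 3 enzyme genes of the ISG15 cycle were lower than with LPS alone, with replicate 3 well above the other arrays for Usp18 and Herc6. Usp18 read 451 and 173 on replicates 1 and 2, beside 376 and 333 in naive cells, but 7896 on replicate 3. The change against LPS was -4.55 ± 0.78 (adjusted p = 0.000238), a 23.5-fold drop; it was -6.13 for Usp18 without replicate 3 of this group and -3.44 without replicate 2. Herc6 read 281, 303 and 2116, a change of -4.07 ± 0.49 (adjusted p = 7.75e-06), and its other 3 probe sets changed by -5.22, -3.56 and -4.16; without replicate 3 Herc6 was at -5.00. Ube2l6 read 84.5, 62.7 and 124, a change of -2.20 ± 0.44 (adjusted p = 0.000888). With the actin ratio as a covariate Ube2l6 was at -1.33 and lost its call (adjusted p = 0.179), while the 7 other genes kept theirs.

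Isg20 read 816, 532 and 2519 at 300 mg/kg, a change of -3.93 ± 0.37 (adjusted p = 1.06e-06). Bst2 read 583, 521 and 658, a change of -2.77 ± 0.28 (adjusted p = 2.13e-06). The 3 Bst2 arrays are close together and below both naive arrays.

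Slfn5 and Usp18 had the 2 largest changes, closer together than their standard errors; without replicate 3 Slfn5 was at -5.14 and Usp18 at -6.13. Slfn5 read 137, 50.6 and 313, a change of -4.58 ± 0.47 (adjusted p = 2.29e-06). Slfn1 read 822, 343 and 2261, a change of -2.89 ± 0.39 (adjusted p = 2.55e-05); 2 of its 3 arrays are below both naive arrays. Slfn4 read 9661, 10835 and 21749, a change of -1.18 ± 0.21 (adjusted p = 0.00042), and again replicate 3 is the high one. Slfn2 read 1924, 519 and 883, a difference of -0.61 ± 0.70 (adjusted p = 0.578), which overlaps both LPS and naive arrays. The 8 lower genes kept their call without any 1 array. All arrays lay below all LPS arrays in 8 of the 9 genes, against 19.2% of all probe sets.

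The arrays at 300 mg/kg differed widely among themselves. The median ratio of the highest to the lowest array over the 9 genes was 4.74 there, beside 1.13 in naive, 1.54 in LPS, 1.59 at 100 mg/kg and 1.27 at 200 mg/kg arrays. For Usp18 the ratio was 45.7, and for Bst2 it was 1.26. Replicate 3 was the highest array in 8 of the 9 genes and replicate 2 the lowest in 7 of 9. Replicate 3 also had the highest actin ratio of all arrays, 18.9, beside 6.99 and 16.2 for the others of its group, and the members' mean log2 value over its 9 genes was 10.6 against 9.31 and 8.59. At 100 mg/kg, in contrast, the array with the highest actin ratio, replicate 2 at 11.6, was the lowest in 7 of the 9 genes. The part of RNA quality in the spread at 300 mg/kg was not tested beyond the covariate.

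Slfn2 varied with the actin ratio. Within the LPS, 100 mg/kg and 200 mg/kg groups, its signal fell from array to array as that ratio rose. At 100 mg/kg, for example, it was 3721 at a ratio of 2.72, 796 at 4.33 and 219.6 at 11.6. The brightest Slfn5 probe set fell in the same order within each of these groups. On the same arrays at 100 mg/kg it read 4686, 2083 and 1074. With the ratio as a covariate the Slfn2 difference against LPS turned from -0.50 to 1.98 at 200 mg/kg (adjusted p = 0.0375) and from -0.61 to 2.42 at 300 mg/kg (adjusted p = 0.00341), both called higher. No direction under SMD is therefore given for Slfn2.

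**Figure D3:**
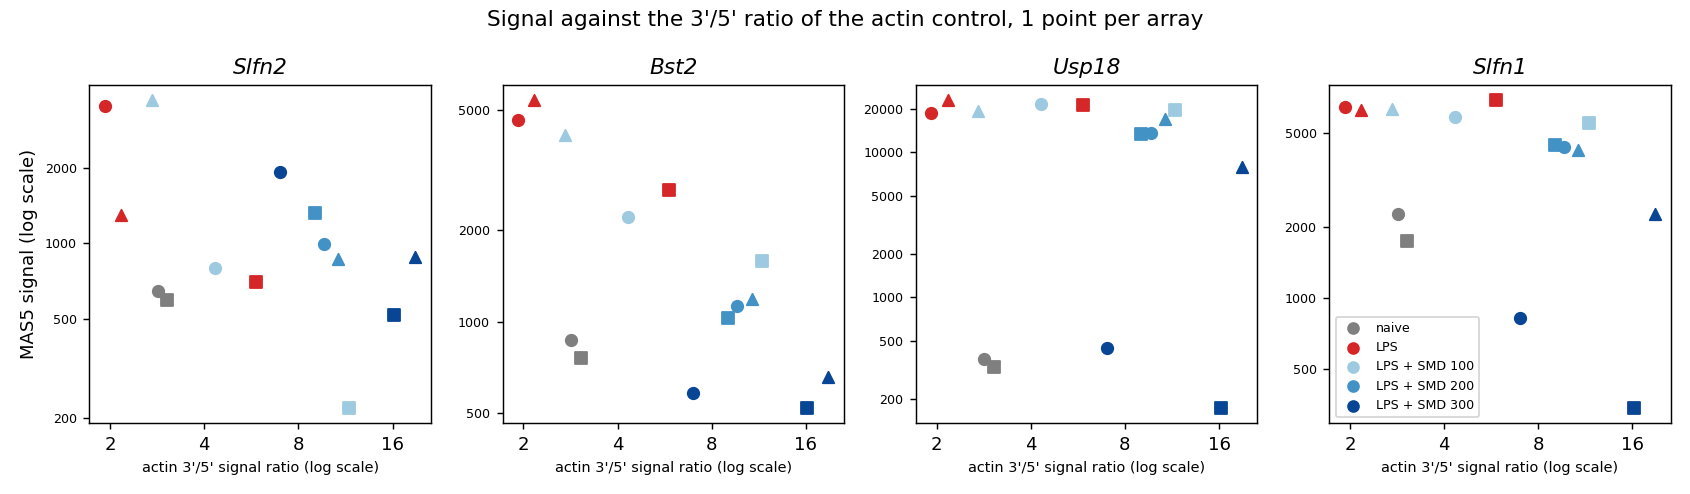
Signal of 4 genes against the actin 3′/5′ signal ratio, both on log axes, 1 point per array, coloured by group and shaped by replicate number (circle 1, square 2, triangle 3). Slfn2 falls from 3721 to 219.6 within the 100 mg/kg group, while Usp18 stays between 19349.8 and 21622 over the same 3 arrays.

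Against naive cells, fewer genes were called higher at the higher doses: 8 genes were higher with LPS alone, 7 at 100 mg/kg, 5 at 200 mg/kg and 1 at 300 mg/kg, where 10.3%, 9.68%, 9.3% and 7.66% of all probe sets were. Ube2l6 (1.26, adjusted p = 0.0663) joined Slfn2 among those not called at 100 mg/kg. The step from 8 to 7 is not firm: Ube2l6 was called at 100 mg/kg with quantile normalization (adjusted p = 0.0174), median scaling (0.0387), array weights (0.0394) and the actin covariate (0.0171), and without SMD 100 mg/kg replicate 2 (0.0286) or SMD 200 mg/kg replicate 1 (0.0479). Slfn2 was called there with the actin covariate too (1.63, adjusted p = 0.00414). At 200 mg/kg the 5 were Usp18 (5.30), Isg20 (3.54), Herc6 (2.11), Slfn5 (1.86) and Slfn4 (0.79), and leaving out either naive array lowered the count to 2. With the actin ratio as a covariate the count was again 5, but of other genes: Herc6 (1.56, adjusted p = 0.117) and Slfn4 (0.37, adjusted p = 0.389) lost their call, and Bst2 (1.19, adjusted p = 0.0086) and Slfn2 (3.19, adjusted p = 0.000128) gained one. The 4 comparisons share the naive arrays, and the differences between these counts were not tested as such.

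Isg20 alone was called above naive at 300 mg/kg, by 1.20 ± 0.41 (adjusted p = 0.0468), with 816, 532 and 2519 all above 401 and 483. That call was lost with the actin covariate (1.38, adjusted p = 0.147), where Slfn2 was called instead (3.63, adjusted p = 0.000162). It was also lost without any 1 of 8 arrays, and without replicate 3 of the group the Isg20 difference was 0.57 (adjusted p = 0.176). Usp18 was at 1.26 ± 0.87 (adjusted p = 0.33), turning to -0.32 without replicate 3, and called higher without replicate 2 (2.38, adjusted p = 0.0343). Slfn1 was at -1.18 ± 0.43 (adjusted p = 0.0614); without replicate 3 both Slfn1 (-1.87, adjusted p = 0.000159) and Herc6 (-1.34, adjusted p = 0.00211) were below naive, where 13% of all probe sets were called lower with all arrays. Slfn5 at -0.69 ± 0.53, Herc6 at -0.41 ± 0.54, Bst2 at -0.47 ± 0.32, Ube2l6 at -0.32 ± 0.49 and Slfn4 at -0.09 ± 0.24 were not called. A difference that was not called does not show that the gene was back at its naive level.

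Compared with each other, the doses 100 and 200 mg/kg differed in no member after adjustment, with 0.337% of all probe sets called lower; 4 of the 9 had an unadjusted p under 0.05. Bst2 came nearest, at -1.12 ± 0.28 (adjusted p = 0.0632), and it was called without LPS replicate 2 and without SMD 100 mg/kg replicate 2 (adjusted p = 0.034 and 0.0296). Without SMD 300 mg/kg replicate 3, Herc6 (adjusted p = 0.0365) and Isg20 (adjusted p = 0.0395) were called instead. Arrays lay apart downwards in 7 of 9, against 10% of all probe sets.

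From 200 to 300 mg/kg 6 genes fell, with log2 changes of -4.04 for Usp18, -2.55 for Slfn5, -2.51 for Herc6, -2.34 for Isg20, -2.30 for Slfn1 and -0.88 for Slfn4, where 3.05% of all probe sets were called lower. Slfn4 lost this call without replicate 1 or 3 at 200 mg/kg or replicate 1 or 2 at 300 mg/kg (adjusted p = 0.0528, 0.122, 0.103 and 0.155), and Herc6 lost it without replicate 2 at 300 mg/kg (adjusted p = 0.0539). Ube2l6 (-0.40 ± 0.44) and Bst2 (-0.91 ± 0.28, adjusted p = 0.0727) were not called in this step, although both had fallen against LPS at 200 mg/kg; Bst2 was called without LPS replicate 2, SMD 100 mg/kg replicate 2 or SMD 100 mg/kg replicate 3, and with the actin covariate (-0.74, adjusted p = 0.0299). From 100 to 300 mg/kg 8 genes fell, with Slfn2 as the exception, where 8.45% of all probe sets were called lower. Of these, Ube2l6 (-1.58, adjusted p = 0.0163) lost its call without replicate 1 or 3 at 100 mg/kg or replicate 2 at 300 mg/kg (adjusted p = 0.054, 0.0822 and 0.0787), and with the actin covariate (-1.04, adjusted p = 0.177), where Slfn2 was called higher (2.00, adjusted p = 0.00216).

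As a straight line over dose in the 12 arrays of LPS-challenged mice, 8 genes fell and Slfn2 did not pass (-0.16, adjusted p = 0.657); 13.8% of all probe sets were called lower. Per 100 mg/kg the slopes were -1.51 ± 0.18 for Slfn5, -1.41 ± 0.32 for Usp18, -1.32 ± 0.18 for Herc6 and -1.28 ± 0.15 for Isg20. They were smaller for Bst2 (-0.94 ± 0.09), Slfn1 (-0.91 ± 0.17), Ube2l6 (-0.78 ± 0.13) and Slfn4 (-0.38 ± 0.08). A line describes Usp18 poorly, since its means were 20846 ± 2033 (SD, n = 3) for LPS, 20213 ± 1231 at 100 mg/kg, 14647 ± 2024 at 200 mg/kg and 2839.9 ± 4381 at 300 mg/kg. With the actin ratio as a covariate Ube2l6 lost its slope (-0.46, adjusted p = 0.145), and Slfn2 gained a rising one (0.85, adjusted p = 0.00746).

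The probe sets of a gene did not always move alike. For Herc6 all 4 rose after LPS and fell at 300 mg/kg, but at 200 mg/kg 2 of the 4 were called, 1438037_at and 1453757_at (-1.89, adjusted p = 0.00606). For Slfn5 the brightest probe set fell by 2.03 at 200 mg/kg, while 1442640_at was at -0.71 (adjusted p = 0.273) and 1458458_at at 0.02 (adjusted p = 0.982). All 3 were lower at 300 mg/kg, with changes of -4.58, -1.74 and -1.01. The second Slfn1 probe set, 1447614_at, read between 2.4 and 113 over all arrays and was not tested.

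**Figure D4:**
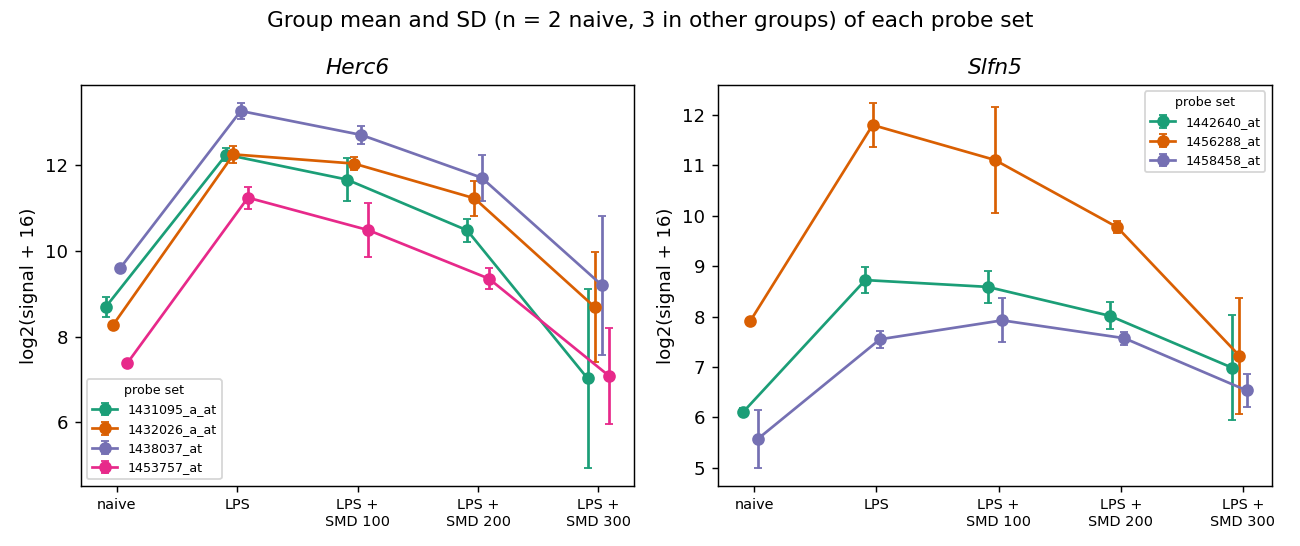
Group mean and SD of log2(signal + 16) for each probe set of Herc6 and Slfn5 over the 5 groups (n = 2 arrays in naive, 3 in the others). All 4 Herc6 probe sets are lowest among the LPS groups at 300 mg/kg, and at 200 mg/kg the brightest Slfn5 probe set has fallen by 2.03 from LPS while 1458458_at differs by 0.02.

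Of 21 other genes listed for the same pathway, 18 were tested: 11 rose and 2 fell after LPS, and 9 fell and 1 rose at 300 mg/kg against LPS. At 100 mg/kg none was called; at 200 mg/kg 3 fell and 2 rose. Of all probe sets 6.68% were called higher at 200 mg/kg and 13.8% at 300 mg/kg against LPS. The calls of these pathway genes are from the fit without the actin ratio. Whether that covariate changes them is not given here. The E1 enzyme gene Uba7 did not follow the conjugation genes after LPS: it was 1397 ± 208 (SD, n = 2) in naive and 1633 ± 427 (n = 3) in LPS arrays (0.19 ± 0.30, adjusted p = 0.691), then fell to 649 ± 117 at 200 mg/kg (-1.29, adjusted p = 0.00493) and 672 ± 70.1 at 300 mg/kg (-1.23, adjusted p = 0.00198). It was below naive at 300 mg/kg (-1.04, adjusted p = 0.0199). Of the 2 other ISG15 enzyme genes, Trim25, an E3 ligase gene, rose after LPS (0.57, adjusted p = 0.00517), and Arih1 fell (-0.77, adjusted p = 0.00698). Both were higher at 200 mg/kg than with LPS alone (0.40, adjusted p = 0.0454, and 0.60, adjusted p = 0.0342).

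Of the interferon receptor and ISGF3 genes, 5 of 7 rose and 1 fell after LPS, and 4 fell and none rose at 300 mg/kg against LPS. Stat2 rose by 2.09 ± 0.36 after LPS (adjusted p = 0.00025) and fell by 2.94 at 300 mg/kg (adjusted p = 3.94e-06). Irf9 rose by 1.63 (adjusted p = 0.000288) and fell by 1.93 (adjusted p = 2.29e-05). Neither was called at 200 mg/kg (adjusted p = 0.0826 for Stat2 and 0.0874 for Irf9). Irf7, a factor that amplifies interferon production, rose by 3.51 (adjusted p = 6.26e-05) and changed by -2.01 at 200 mg/kg (adjusted p = 0.0104) and -3.83 at 300 mg/kg (adjusted p = 1.11e-05). Jak1, a receptor kinase, rose by 0.96 (adjusted p = 0.00133) and changed by -0.63 and -1.10 at 200 and 300 mg/kg (adjusted p = 0.0275 and 0.000156). Tyk2, the other receptor kinase, went the other way after LPS. Its mean was 1053 in naive, 359 in LPS and 363 in 300 mg/kg arrays.

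Ifnb1, the interferon beta gene, was higher at the highest dose. Its signal was 69.8 ± 65.0 (SD, n = 2) in naive, 44.0 ± 6.69 (n = 3) in LPS, 64.8 ± 51.0 at 100 mg/kg, 136 ± 59.2 at 200 mg/kg and 554 ± 84.8 at 300 mg/kg arrays. It was 3.24 ± 0.51 above LPS (adjusted p = 0.000122) and 2.97 ± 0.57 above naive (adjusted p = 0.00136) at 300 mg/kg, the only one of the 18 that rose against LPS at that dose; LPS alone was not called against naive (-0.28, adjusted p = 0.776). It is named against LPS after its values were seen. The labels do not give the harvest time of the LPS arrays.

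The 3 Schlafen genes outside the list of members that fell at 300 mg/kg were, also named after their values were seen, Slfn8 (-3.23, adjusted p = 0.000537), Slfn9 (-1.85, adjusted p = 0.000175) and the pseudogene Slfn10-ps (-2.04, adjusted p = 0.00623). Slfn8 rose by 2.96 after LPS (adjusted p = 0.00273) and was at 0.02 at 200 mg/kg (adjusted p = 0.988). Its means were 7978, 10567 and 8234 for LPS, 100 and 200 mg/kg. Aen, a nuclease gene related to Isg20, rose by 2.80 (adjusted p = 2.29e-07) and fell by 2.07 (adjusted p = 4.09e-06). Isg20l2, another relative, rose by 1.05 after LPS (adjusted p = 0.000105) and was at -0.20 at 300 mg/kg (adjusted p = 0.371).

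Over the 12 LPS arrays, the genes whose log2 values ran most like those of Usp18 were Ifit1bl1 (Pearson r = 0.995), Ifit3 (0.992), Slfn8 (0.989), Itgb8 (0.986) and Tor3a (0.986), out of 12808 genes. For Slfn4 they were Gm4951 (0.989), Ifi209 (0.988), Ifi202b (0.988), Gbp7 (0.985) and Trim30a (0.984). Usp18 was taken for this after Isg15 was found to have no probe set of its own. These values describe 12 arrays in 4 dose groups, which share their dose and scaling. Among the members, Usp18 ran closest to Slfn1 (0.983), Herc6 closest to Isg20 (0.980) and Bst2 closest to Slfn5 (0.940). Slfn2 had no r above 0.411 with any other.

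Some markers of other cells also differed from LPS. At 200 mg/kg 3 of 7 T and NK cell, 2 of 4 plasmacytoid dendritic cell and 2 of 3 plasma cell markers were higher and none lower; 1 of 7 B cell markers and 1 of 6 mast cell markers moved each way, and 1 of 6 neutrophil and 1 of 10 macrophage markers were lower. At 300 mg/kg against LPS 4 of 7 T and NK cell markers, 2 of 3 plasma cell markers, 2 of 4 plasmacytoid dendritic cell markers and 2 of 7 B cell markers were higher, none of them lower, and of 6 neutrophil markers 2 were higher and 1 was lower. Of 10 macrophage markers 3 were higher and 1 lower, of 4 monocyte markers 1 was higher and 1 lower, and of 6 mast cell markers 1 was higher. The shares of all probe sets called were 6.68% higher and 6.39% lower at 200 mg/kg and 13.8% and 13.7% at 300 mg/kg; none of these markers was called at 100 mg/kg. The summed T and NK cell signal was 861 to 1227 in LPS and 2638 to 3886 in 300 mg/kg arrays. In it the mean of Cd3d went from 296 to 883, Cd3e from 180 to 768 and Cd3g from 271 to 854. Thy1 went from 77.6 to 449 and Cd8a from 53.8 to 94.0. Cd4 went from 40.2 to 9.83, and Ncr1, an NK cell marker, from 71.6 to 60.3. Bst2 is also a marker of plasmacytoid dendritic and plasma cells. Their marker sums were 711 to 877 and 1706 to 2537 in LPS arrays, and 1090.2 to 1673 and 3005 to 5347 at 300 mg/kg. Prdm1 made up most of the plasma cell sum, with means of 232 in naive, 1546 in LPS and 3251 in 300 mg/kg arrays. From LPS to 300 mg/kg Jchain went from 147 to 504, Sdc1 from 300 to 361 and Tnfrsf17 from 56.0 to 49.4. In the plasmacytoid sum Ccr9 went from 266 to 751, Pacsin1 from 108 to 217, Cox6a2 from 65.0 to 143 and Klk1 from 328 to 214. Siglech, which defines plasmacytoid dendritic cells, stayed between 4.7 and 50.3. The macrophage sum was 129976 to 130823 in LPS arrays and 136906 to 150777 at 300 mg/kg. Its genes did not all move alike. Vsig4 went from a mean of 12831 to 19235 and Timd4 from 11579 to 15732, while Itgam went from 2314 to 675 and Gata6 from 828 to 648. The part of these cells in the results was not tested.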

How the data were processed

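Gene expression was measured on 14 arrays in 5 groups. The authors deposited MAS5 signals, an intensity for each probe set that is not logged; MAS5 is named in the submitters' processing notes, its version and other settings are not given in the sources used here, and every array had a trimmed mean of 500.0 after 2% of the values at each end were left out. Probe sets were named through the platform annotation: of 45037 that were not controls (64 were), 34945 had 1 symbol, 932 had several and 9160 had none, and 34741 single symbols were updated through Entrez IDs. The values were taken as log2(signal + 16), and probe sets whose mean was among the lowest 40% were not tested, which left 27022 probe sets for 12817 genes. Comparisons used limma 3.58.1 in R 4.3.3 with 1 mean per group over all 14 arrays, and a variance trend; p-values were two-sided, adjusted by Benjamini-Hochberg across every probe set tested and called at 0.05; the dose trend was fitted over the 12 arrays with LPS. The number of arrays limits the precision. A gene with several probe sets is represented by the one with the highest mean.

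The members and the lists of pathway and marker genes were chosen with earlier results of these data known. All members were counted in every comparison, but in some of them only part of the members were named. Of the other pathway genes, up to 4 with the smallest p were to be named, besides Uba7, Stat2 and Irf9. That rule was not kept throughout. Some genes were named after their values were seen, and Uba7, Stat2 and Irf9 are given for part of the comparisons only. The named genes are therefore a selection. The fit was tested on simulated data with the spread of these arrays and far fewer changed probe sets. For LPS against naive it recovered 11% of 100 probe sets changed by a log2 of 1 and 50% of 100 changed by 2. For 300 mg/kg against LPS it recovered 20% and 57%. Changes of these sizes can therefore go uncalled. Alternatives changed the pseudocount, filter, scaling, variance prior, array weights, replicate block, actin covariate, probe set rule, groups in the fit and arrays. Same-numbered replicates deviated together only weakly (26 pairs, r from -0.13 to 0.18, 4 over 0.1), so the numbers were not taken as pairs. Of 52 pairs with different numbers, 2 were over 0.1 (r from -0.27 to 0.22). Among the 9 members, replicate 2 was the lowest array in 5 genes with LPS alone. It was the lowest in 7 at 100 mg/kg, 3 at 200 mg/kg and 7 at 300 mg/kg. A shared effect of the replicate number was not tested beyond the fit with it as a block.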

Additional observations from a re-analysis of the deposited data

Results flagged for a closer look

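A probe set annotated with both Isg15 and the pseudogene Gm9706, 1431591_s_at, was left out of every count because its signal cannot be assigned to either gene, and stood out for its signal after LPS. Its mean was 20772 in LPS arrays against 187 in naive arrays, whose highest value was 229. It read 20666, 18001 and 23648 after LPS, 13148, 14327 and 19768 at 100 mg/kg, 10436, 9046 and 9657 at 200 mg/kg and 3098, 958 and 4839 at 300 mg/kg. At 300 mg/kg its log2 change against LPS was -3.08 ± 0.37 (limma adjusted p = 8.32e-06), an 8.43-fold drop, and all 3 arrays were still above both naive arrays, by 3.63 ± 0.41 in the fit (adjusted p = 6.39e-06). Among the counted genes, Isg20 was the only one called above naive at that dose.

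The second such probe set, 1450322_s_at, carries both Slfn4 and Slfn3. Its mean was 2858 after LPS against 918 in naive arrays, whose highest value was 939. Unlike the probe set of Slfn4 alone, it was below naive at 300 mg/kg, with 233, 147 and 319 (-1.97 ± 0.50, adjusted p = 0.00955). At 200 mg/kg its 444, 450.3 and 598 were below LPS (-2.31 ± 0.45, adjusted p = 0.00318), where the probe set of Slfn4 alone was not called. The difference between these probe sets was not tested.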

How the results depend on the processing

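Leaving out 1 array gave ranges for the number of members called lower of 0 to 1 at 100 mg/kg against LPS, 2 to 5 at 200 mg/kg against LPS, 0 to 2 for 200 against 100 mg/kg, 4 to 7 for 300 against 200 mg/kg and 0 to 2 for 300 mg/kg against naive. For the number called higher it gave 2 to 6 at 200 mg/kg and 0 to 2 at 300 mg/kg against naive. The counts of 8 at 300 mg/kg against LPS and in the dose trend were 8 without any 1 array. Without the variance trend the count was 2 lower at 200 mg/kg against LPS, 2 lower for 300 against 200 mg/kg, 3 higher at 200 mg/kg and 0 higher at 300 mg/kg against naive. The mean of all probe sets of a gene gave 3 lower at 200 mg/kg against LPS and 0 higher at 300 mg/kg against naive, and a pseudocount of 1 or only the groups compared also gave 0 there. Array weights gave 1 lower at 100 mg/kg against LPS, 1 lower for 200 against 100 mg/kg and 1 lower for 300 mg/kg against naive. The actin ratio as a covariate gave 0 lower and 1 higher (Slfn2) at 200 mg/kg against LPS, and 1 higher at 300 mg/kg against LPS, for 300 against 100 mg/kg and in the trend. The cause of these differences was not tested.

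With the replicate number as a block, 1 member was called lower for 200 against 100 mg/kg (Bst2, -1.12, adjusted p = 0.0207) and 1 at 300 mg/kg against naive (Slfn1, -1.36, adjusted p = 0.0285); Bst2 was also called for 300 against 200 mg/kg (-0.91, adjusted p = 0.0211), and Ube2l6 turned to -0.16 at 200 mg/kg against naive. Other counts of members stayed within 1.5 times.

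The values that turned sign in some refit were all of members not called in the fit reported. Against LPS at 100 mg/kg, Usp18 was 0.027 with quantile normalization and 0.0060 with array weights. Slfn2 was 0.42 at 100 mg/kg, 1.98 at 200 mg/kg and 2.42 at 300 mg/kg against LPS, 0.44 for 300 against 200 mg/kg and 0.85 in the trend with the actin covariate. At 300 mg/kg against naive the actin covariate gave 0.54 for Ube2l6, 0.45 for Bst2 and 0.39 for Slfn5, the mean of all probe sets gave 0.38 for Slfn5, and median scaling gave 0.16 for Slfn4. Ube2l6 at 200 mg/kg against naive was -0.0048 with array weights.

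Leaving out 1 array gave, against LPS at 100 mg/kg, -0.12 to 0.025 for Usp18, -1.77 to 0.22 for Slfn2 and -0.17 to 0.0015 for Slfn4. Slfn2 ran from -1.03 to 0.13 at 200 mg/kg and from -1.14 to 0.0095 at 300 mg/kg against LPS, from -0.72 to 1.27 for 200 against 100 mg/kg, from -0.61 to 0.32 for 300 against 200 mg/kg, from -0.83 to 1.16 for 300 against 100 mg/kg, from -0.53 to 1.46 at 100 mg/kg against naive and from -0.30 to 0.032 in the trend. Against naive, Ube2l6 ran from -0.35 to 0.51 at 200 mg/kg, and at 300 mg/kg the ranges were -0.75 to 0.105 for Ube2l6, -1.34 to 0.086 for Herc6, -0.32 to 2.38 for Usp18 and -0.46 to 0.13 for Slfn4.

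Scaling to the same median moved the median of all probe sets from -0.24 to -0.10 after LPS and from -0.27 to -0.04 at 300 mg/kg against naive. It moved the split of higher and lower calls from 2615 and 4440 to 3137 and 2834 at 100 mg/kg (3276 and 3300 with quantile normalization), from 2513 and 4430 to 3289 and 2527 at 200 mg/kg and from 2071 and 3500 to 3096 and 1886 at 300 mg/kg against naive. Against LPS at 200 mg/kg the split went from 1804 and 1728 to 1915 and 1146, and for 200 against 100 mg/kg from 213 and 91 to 159 and 36.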
